A study of Mus musculus with 12 samples.

Results

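T cells whose beta chain uses the variable gene TRBV5, which encodes the V-beta segment known as Vb1, were described across 6 T cell receptor libraries from mouse mammary tumours. A chain was counted when its contig lay in a called cell, was marked productive, was a beta chain (TRB) and carried the V gene name TRBV5. The rule found 1103 contigs in 1094 cells, of 10295 cells with a productive TRB. A clone was a distinct CDR3 nucleotide sequence within a library, and TRBV5 gave 1059 clones of 10174 TRB clones.

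The series profiled CD45+ leukocytes of mammary tumours grown in Balb/c mice. Of its 12 samples, 8 were expression libraries, not analysed here, and 4 were receptor libraries, made with a 5′ droplet kit and V(D)J enrichment. The labels name a treatment of 3 weeks with cyclophosphamide, an alkylating drug, and pexidartinib, a kinase inhibitor that blocks the CSF1 receptor, and mark samples only as treated or untreated. The table's own library names are kept here, and the labels do not define them. CTX, CTX2 and Combined carry the numbers of treated receptor samples. CSF1R and PBS1 are tied to the labels only through the numbers of expression samples, treated for CSF1R and untreated for PBS1, and their receptor numbers match no label. PBS2 was treated by its receptor record and untreated by its paired expression record. It was therefore left out of the main comparison of treated with untreated libraries, and counting it on either side was run as an alternative. The untreated side of that comparison thus rests on 1 library and on the same kind of tie that conflicts in PBS2. Nothing ties a library to an animal, so the p-values rest on the spread of these libraries alone, which may be technical.

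A beta chain is assembled in the thymus by joining a V, a D and a J gene, with bases trimmed and added at both junctions. The junction encodes CDR3, the loop that faces the antigen peptide, while the V gene also encodes the loops CDR1 and CDR2. A T cell usually keeps a single productive TRB and pairs it with an alpha chain (TRA), joined from a TRAV and a TRAJ gene. Cells that descend from the same T cell share the CDR3 nucleotide sequence, so the number of cells per clone records expansion.

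Trbv5, also named Tcrb-V1, lies at chr6:41062359-41062803 in GRCm38.p6 and is annotated as a V segment of 445 bases. It stands between Trbv4 and the pseudogene Trbv6, and Trbd1, the nearer D gene, begins 470 kb further along the chromosome. The start that the V gene gives to CDR3 was read as the base that most clones share at each position. That modal start is shown because it marks where TRBV5 CDR3s begin, and bases kept in under 90% of clones are in capitals.
TRBV5 modal CDR3 start: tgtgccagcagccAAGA
The first 13 of its 17 bases, which encode CASS and the first base of the next codon, were intact in 1002 of 1059 clones. The base at position 13, counted from the first base of CDR3, was kept in 95.6% of clones, that at position 14 in 74.9% and that at position 17 in 50.6%. On average 15.1 ± 0.224 bases of the modal start were kept before the first difference (SD of library means, n = 6).

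Depth differed between libraries. They held between 245 called cells in PBS1 and 7629 in Combined, and between 6807 and 121305 UMIs, which count captured RNA molecules. The TRBV5 clones numbered 95 in CSF1R, 38 in CTX, 48 in CTX2, 834 in Combined, 33 in PBS2 and 11 in PBS1. Shares in PBS1 therefore move in steps of a whole clone of 11, and Combined holds most of the clones. The share of each library was given equal weight in every mean. Of 11468 barcodes, 50 occurred in 2 libraries; 10 of these carried TRBV5, and 0 had the same TRBV5 CDR3 in both. Contigs of immunoglobulin and gamma-delta chains, which would mark B cells and gamma-delta T cells, were rare in called cells of all kinds: 8 IGH, 2 IGL, 0 IGK, 1 TRG and 1 TRD contigs.

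TRBV5 was among the most used V genes in each of the 6 libraries. It made up 10.8% of TRB clones in CSF1R (exact 95% interval 8.83 to 13.1), 9.62% in CTX (6.90 to 13), 9.34% in CTX2 (6.97 to 12.2) and 10.6% in Combined (9.96 to 11.3). PBS2 had 8.21% (5.72 to 11.3) and PBS1 7.80% (3.96 to 13.5). By clone share CSF1R, CTX, CTX2 and Combined lay above both PBS libraries, although the interval of PBS1 spans all the other values. By cell share this order did not hold, with 7.52% in CTX and 5.99% in CTX2 against 7.64% in PBS2. The mean over libraries was 9.40% ± 1.23 (SD, n = 6), rank 4 of 22 TRBV genes after TRBV13-2, TRBV13-1 and TRBV19. In single libraries its rank ran from 3 to 5. The V genes with the most similar shares, by mean absolute difference over the 6 libraries, were TRBV19, at 1.65 percentage points, TRBV13-3, at 2.09, and TRBV13-1, at 2.13.

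Treated libraries averaged 10.1% ± 0.729 (SD, n = 4) and the untreated library had 7.80%, a difference of 2.30 percentage points. The two-sided exact permutation test gave p = 0.2, which is the smallest p that 4 libraries against 1 allow. With PBS2 counted as untreated the difference was 2.09 points with p = 0.0667 in the same exact permutation test, again the smallest possible. With PBS2 counted as treated, the label of its receptor record, the difference was 1.92 points. The intervals of single libraries cover counting error only.

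Counted by cells, TRBV5 took 11.3% of TRB cells in CSF1R, 7.52% in CTX, 5.99% in CTX2, 11.8% in Combined, 7.64% in PBS2 and 5.73% in PBS1. The cell share lay below the clone share in CTX, CTX2, PBS2 and PBS1 and above it in CSF1R and Combined. The denominators differ, because a cell with a second TRB counts once among cells but can belong to several clones. Combined had 7843 TRB clones in 7188 cells with a TRB, and CSF1R had 879 in 866. A cell share above the clone share there therefore need not mean larger TRBV5 clones. CTX2 showed the widest gap, and there the largest clone of another V gene held 119 cells, while the largest TRBV5 clone held 11 cells.

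**Figure D1:**
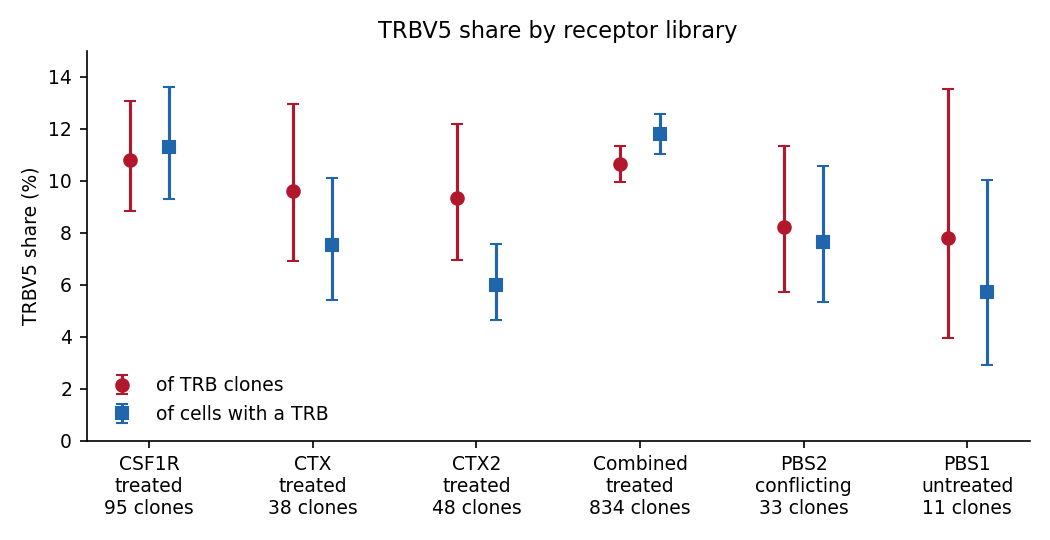
TRBV5 share of TRB clones (circles) and of cells with a productive TRB (squares) in each receptor library, in percent, with exact 95% intervals for counting error. Clone shares ran between 7.80% and 10.8%, while cell shares spread from 5.73% to 11.8%.

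The CDR3 of TRBV5 clones was longer than that of other TRB clones in 6 of 6 libraries. Its mean length was 14.6 residues in CSF1R, 14.3 in CTX, 14.5 in CTX2, 14.6 in Combined, 14.4 in PBS2 and 15.3 in PBS1. Other TRB clones had a mean between 13.6 and 13.7 residues in each library, so the library means of TRBV5 and of other clones did not overlap. TRBV5 clones averaged 14.6 ± 0.333 residues and other clones 13.7 ± 0.0368, a difference of 0.937 ± 0.316 (SD, n = 6). The two-sided exact sign-flip permutation test gave p = 0.03125, the smallest that 6 libraries allow, and an adjusted p = 0.0938 over the 6 clone measures compared, so the difference did not pass the threshold of 0.05 after adjustment. Against other clones with the same J gene, a comparison added after the values were seen, it was 0.993 ± 0.315 residues and again positive in 6 of 6 libraries.

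The distributions differed at both ends. The most common TRBV5 length was 15 residues, at 30.3% of clones, against 18.4% of other clones. At 13 residues the shares were 11.2% of TRBV5 clones and 22.8% of other clones. Long loops of 17 or more residues occurred in 70 TRBV5 clones, a mean share of 9.41% ± 5.17, against 2.94% ± 0.586 of other clones. Short loops of 11 or fewer residues occurred in 21 TRBV5 clones, 1.79% ± 1.45, against 8.19% ± 0.772 of other clones. The shortest TRBV5 CDR3 had 10 residues and the longest 19.

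Among the 13 most used V genes, TRBV5 had the highest mean length, followed by TRBV2, at 14.4 ± 0.156 residues, and TRBV3, at 14.4 ± 0.626. The means of TRBV5, TRBV2 and TRBV3 differed by less than the SD of TRBV5 across libraries. The V genes nearest in abundance were shorter, with 13.8 ± 0.364 residues for TRBV19, 13.7 ± 0.255 for TRBV13-3 and 14 ± 0.298 for TRBV13-1. At the low end, TRBV1 averaged 12.1 ± 0.231. TRBV2, TRBV3 and TRBV1 were chosen by their rank in length after the values were seen, and no test was run between single V genes.

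**Figure D2:**
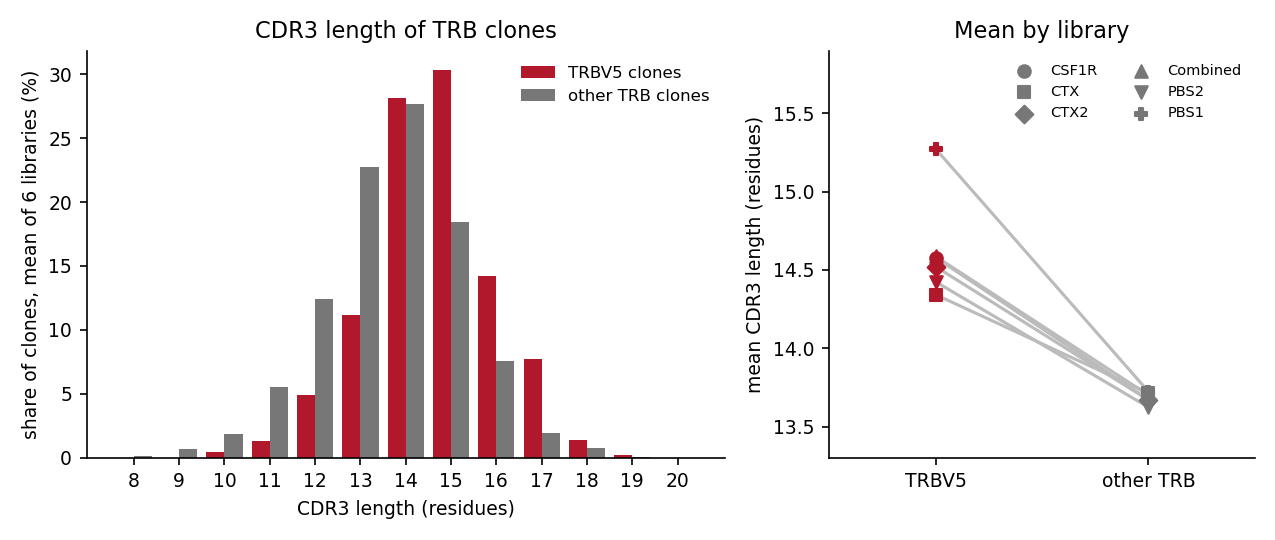
Left, share of clones (percent, mean of 6 libraries) at each CDR3 length in residues for TRBV5 (red) and other TRB clones (grey). Right, mean CDR3 length in residues by library, each library joined by a line; TRBV5 means ran between 14.3 and 15.3 residues and the means of other clones between 13.6 and 13.7.

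Most TRBV5 loops began with the 5 residues CASSQ. This start was found in 738 of 1059 clones, between 64.2% in CSF1R and 72.7% in PBS1, with a mean of 68.6% ± 3.13 (SD, n = 6). Of other TRB clones, 4.84% ± 1.44 began this way, and these were mostly TRBV2, the gene of Vb4, in which 404 of 504 clones did. After CASSQ the next residue was acidic in 428 of 738 clones, with aspartate in 289 and glutamate in 139; glycine followed in 116. Both acidic residues can be read from the last 2 modal bases plus 1 more base. The start CASSP, in which the fifth residue is no longer V-encoded glutamine, was found in 151 clones, a mean of 16.4% ± 3.20.

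D genes were named in most junctions. TRBD1 was called in 39.3% ± 5.82 of TRBV5 clones and 45.7% ± 3.53 of other clones, TRBD2 in 34.1% ± 8.43 and 29.5% ± 2.22, and no D gene in 26.6% ± 7.43 and 24.8% ± 1.94. TRBD2 lies downstream of the TRBJ1 genes, and it was called in 20 of 376 TRBV5 clones joined to TRBJ1 (5.32%), against 5.63% of other TRBJ1 clones. The constant gene could not be read: all 1103 TRBV5 contigs were called TRBC1, although 683 clones used TRBJ2 genes, which normally splice to TRBC2.

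J gene use was compared to see whether TRBV5 joins differed from those of other V genes. The TRBJ2 cluster took 62.2% ± 5.02 of TRBV5 clones and 61.8% ± 3.37 of other clones, and the difference was positive in 3 libraries and negative in 3 (exact sign-flip permutation p = 0.906). Of the 12 TRBJ genes tested by the same permutation test with Benjamini-Hochberg adjustment, 0 were called (0%) and 1 had an unadjusted p below 0.05. A single gene at the smallest possible p cannot pass after adjustment over 12.

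The J genes joined most often to TRBV5 were TRBJ2-5, TRBJ2-7 and TRBJ1-1. TRBJ2-5 took 14.7% of TRBV5 clones in CSF1R, 13.2% in CTX, 16.7% in CTX2, 15.7% in Combined, 15.2% in PBS2 and 27.3% in PBS1. PBS1 stood apart, where the share is 3 of 11 clones, and the other libraries fell close together. The mean was 17.1% ± 5.11 in TRBV5 clones and 11.7% ± 1.79 in other clones, higher in 6 of 6 libraries, with p = 0.03125 in the exact sign-flip permutation test and an adjusted p = 0.375. The difference was 5.42 percentage points on average, 18.0 points in PBS1 and 0.517 points in PBS2. Without PBS1 the mean difference was 2.90 points. The smallest p was also lost in some alternatives with all 6 libraries. The exact sign-flip permutation test gave p = 0.0625 with contigs of 2 or more UMIs, at 5.70 points. With 3 or more UMIs the difference was 2.44 points (p = 0.0938, exact permutation), and with cells counted 3.37 points (p = 0.562, exact permutation).

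TRBJ2-7 took 16.2% ± 3.08 of TRBV5 clones and 15.6% ± 1.72 of other clones, and the small difference changed sign without CSF1R or without PBS1. TRBJ1-1 took 12.7% ± 7.11 and 9.45% ± 0.862, from 0 of 11 clones in PBS1 to 21.1% in CTX. TRBJ2-3 took 11.3% ± 3.66 and 9.23% ± 0.437, TRBJ1-4 9.77% ± 8.93 and 8.75% ± 0.840, and TRBJ2-1 9.22% ± 3.11 and 11% ± 1.91. The TRBJ1-4 share rested on PBS1, where it was 27.3%, and without PBS1 it was 6.27% of TRBV5 clones and 8.65% of other clones, the opposite direction. The remaining J genes each took under 6% of TRBV5 clones. TRBJ1-5 had 5.42% ± 5.43 against 3.63% ± 0.805 of other clones, TRBJ2-4 had 5.29% ± 3.53 against 8.53% ± 0.740, and TRBJ1-3 had 3.98% ± 2.96 against 6.78% ± 0.858. PBS2 was high for TRBJ1-5, at 15.2%, and without it the shares were 3.48% of TRBV5 clones and 3.49% of other clones. TRBJ1-2 took 3.22% ± 3.35 and 4.92% ± 0.935, TRBJ2-2 3.07% ± 2.68 and 5.76% ± 1.65, and TRBJ1-6 2.73% ± 1.61 and 4.64% ± 2.30. Without PBS2 the TRBJ1-2 shares were 2.04% and 5.09%. For the 11 genes other than TRBJ2-5, the unadjusted p-values ran between 0.0625 and 0.906 (exact sign-flip permutation).

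**Figure D3:**
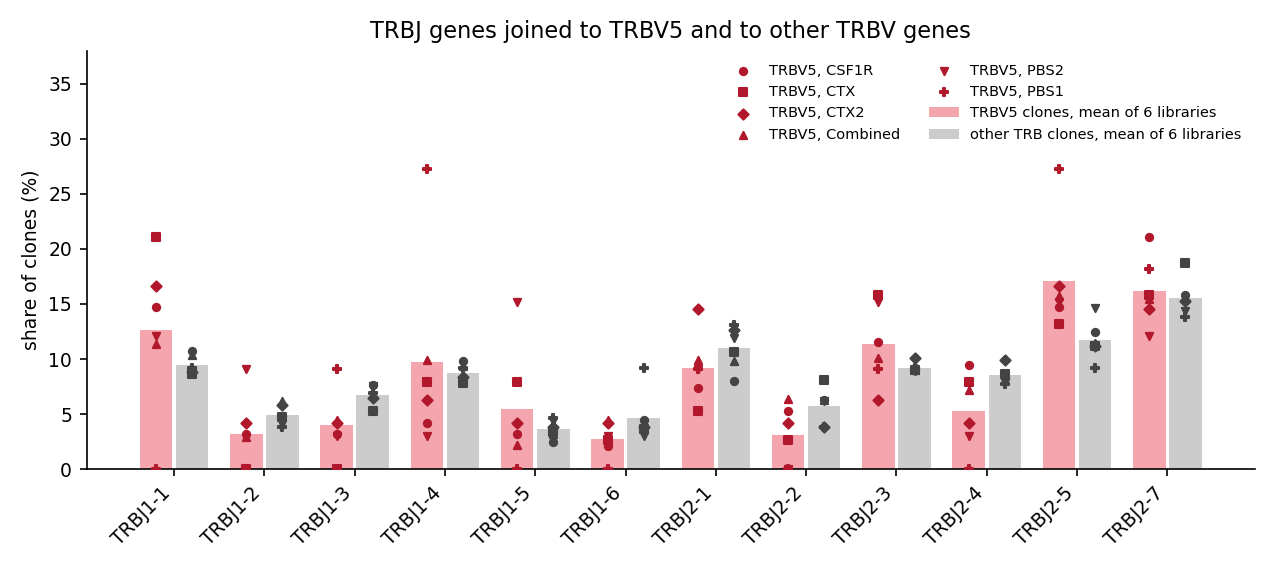
Share of clones joined to each TRBJ gene, in percent; bars are means of 6 libraries for TRBV5 clones (pink) and other TRB clones (grey), and points are single libraries, with the same marker for a library in both colours. TRBJ2-5 was higher in TRBV5 clones in 6 of 6 libraries, with PBS1 at 27.3%.

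Most TRBV5 clones were seen in a single cell. Clones of 2 or more cells numbered 2 in CSF1R, 2 in CTX, 7 in CTX2, 9 in Combined, 1 in PBS2 and 0 in PBS1. They made up 2.11% of TRBV5 clones in CSF1R, 5.26% in CTX, 14.6% in CTX2, 1.08% in Combined, 3.03% in PBS2 and 0% in PBS1; 0 of 11 clones in PBS1 allow a share of up to 27.3%. The mean share was 4.34% ± 5.33 in TRBV5 clones and 6.48% ± 4.98 in other clones, lower in 3 libraries and higher in 3, with p = 0.406 in the exact sign-flip permutation test and an adjusted p = 0.487. CTX2 carried much of the TRBV5 mean, and without it the shares were 2.30% of TRBV5 clones and 5.59% of other clones, a difference of -3.29 points. Without PBS1 the difference was -0.566 points, against -2.14 over the 6 libraries.

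Expanded clones held 36.9% of TRBV5 cells in CTX2, against 60.9% of other TRB cells there. In CTX the shares were 10% of TRBV5 cells and 39.4% of other cells, and in PBS1 0% and 38.1%. Combined and CSF1R ran the other way by small amounts, with 2.60% of TRBV5 cells and 1.60% of other cells in Combined, and 5.10% and 4.34% in CSF1R. In PBS2 expanded clones held 8.57% of TRBV5 cells and 16.7% of other cells. In these shares a cell counts once for each clone it belongs to, so PBS2 has 35 TRBV5 counts from 33 cells. A size of 10 or more cells was reached by 1 of 1059 TRBV5 clones (0.0944%) and by 20 of 9115 clones of other V genes (0.219%).

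The largest TRBV5 clones differed between libraries in all but 1 case. Combined had a pair of 4-cell clones, each 0.0556% of its TRB cells (exact 95% interval 0.0152 to 0.142), joined to TRBJ1-4 and TRBJ2-3. CSF1R had a 3-cell clone joined to TRBJ2-3 and paired with TRAV12-1/TRAJ53 in 2 of its cells. CTX had 2 clones of 2 cells, joined to TRBJ2-1 and TRBJ1-4, the first with the alpha CDR3 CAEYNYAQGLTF and the second with a TRAV10N/TRAJ52 alpha, in both of their cells. The other clones among the 3 largest of these libraries and of PBS1 held 1 or 2 cells. The case that did not differ was a CDR3 that led in both CTX2 and PBS2.

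That CDR3 was 16 residues long, began CASSQD, was joined to TRBJ2-1 and was encoded by 4 different nucleotide rearrangements in 19 cells of CTX2 and PBS2. The rearrangements are shown because the same protein was encoded by different bases, and the bases that differ among them are in capitals.
CTX2, 11 cells: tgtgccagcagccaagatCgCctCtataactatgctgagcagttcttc
CTX2, 3 cells: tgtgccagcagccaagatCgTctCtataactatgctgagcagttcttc
PBS2, 3 cells: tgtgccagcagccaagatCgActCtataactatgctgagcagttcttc
CTX2, 2 cells: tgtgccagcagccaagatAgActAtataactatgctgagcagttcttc
Counting from 1 at the first base of CDR3, the 3-cell clone of CTX2 differs from the 11-cell clone by C21T, the PBS2 clone by C21A and the 2-cell clone by C19A, C21A and C24A. All 4 keep the modal TRBV5 start to its 17th base, and none had a D gene called. The differing bases follow that start, and the encoded protein is the same in each.

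Together these rearrangements held 16 of the 65 TRBV5 cells of CTX2 (24.6%), 1.47% of its TRB cells. In CTX2 the 11-cell clone alone made up 1.01% of TRB cells (0.507 to 1.81, exact 95% interval), and in PBS2 the 3-cell clone made up 0.694% (0.143 to 2.02). TRBV5 UMIs per cell ran from 3 to 43 in the 11-cell clone, with a median of 15, from 6 to 10 in the 3-cell clone of CTX2, from 3 to 10 in PBS2, and were 7 and 27 in the 2-cell clone. Each of the 19 cells held a single productive TRB contig. The count of 19 was the same with contigs of 3 or more UMIs, with high-confidence contigs and with possible doublets left out. Outside called cells, 14 TRB contigs of CTX2 and 1 of PBS2 carried the same CDR3; whether RNA shed from lysed cells added to the cell counts was not tested.

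The alpha chains of the 4 rearrangements differed. The 11-cell clone carried a pair of alphas, TRAV14-1/TRAJ58 in 10 cells and TRAV3-4/TRAJ57 in 10 cells. The 3-cell clone of CTX2 carried TRAV14N-1/TRAJ58 in 2 cells, so both larger CTX2 clones had a TRAV14 gene joined to TRAJ58. Their alpha CDR3 sequences are shown to compare them, with the end that both share in capitals.
CTX2 alpha of the 11-cell clone: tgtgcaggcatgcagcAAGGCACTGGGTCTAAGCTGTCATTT
CTX2 alpha of the 3-cell clone: tgtgAAGGCACTGGGTCTAAGCTGTCATTT
The first encodes 14 residues and the second 10, and they share the last 26 bases. That end lies on the side of TRAJ58, which both use. A CSF1R clone with another TRBV5 CDR3 and TRAJ58 had the alpha CDR3 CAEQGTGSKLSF, which ends in the same residues. The 2-cell clone carried TRAV9-4/TRAJ53, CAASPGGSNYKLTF, in both cells, and the PBS2 clone a TRAV9N-2/TRAJ45 alpha in 2 of 3 cells. Each alpha sequence of the 4 rearrangements was found in 0 other cells of the 6 libraries.

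A close relative was found in PBS1. A single PBS1 cell carried TRBV5 with TRBJ2-1 and a CDR3 that differs from the repeated loop by R7K, counted from 1 at the first residue of CDR3, with 10 TRB UMIs. Its alpha used TRAV9N-2/TRAJ45, the genes of the PBS2 clone's alpha. The alpha CDR3 sequences of both are shown to compare them, with the bases they share at the end in capitals.
PBS2 alpha, TRAV9N-2/TRAJ45: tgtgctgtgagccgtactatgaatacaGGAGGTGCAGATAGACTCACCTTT
PBS1 alpha, TRAV9N-2/TRAJ45: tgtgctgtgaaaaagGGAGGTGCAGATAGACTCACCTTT
The PBS1 alpha reads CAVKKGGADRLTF, of 13 residues, against 17 in PBS2, and the last 24 bases are shared. That end lies on the side of TRAJ45, which both alphas use, so it does not by itself relate them. The beta chain of the PBS1 cell was as follows.
PBS1, 1 cell: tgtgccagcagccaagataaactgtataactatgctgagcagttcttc
In CTX, the 2-cell clone joined to TRBJ2-1 differs from the repeated loop by L8D and Y9W and carried a TRAV7-3/TRAJ26 alpha. Among the 158 TRBV5 clones with a 16-residue CDR3, these were the relatives within 2 residues. TRAV genes with D or N in their names are near-identical copies of a duplicated stretch of the alpha locus, so the copy named here is uncertain.

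**Figure D4:**
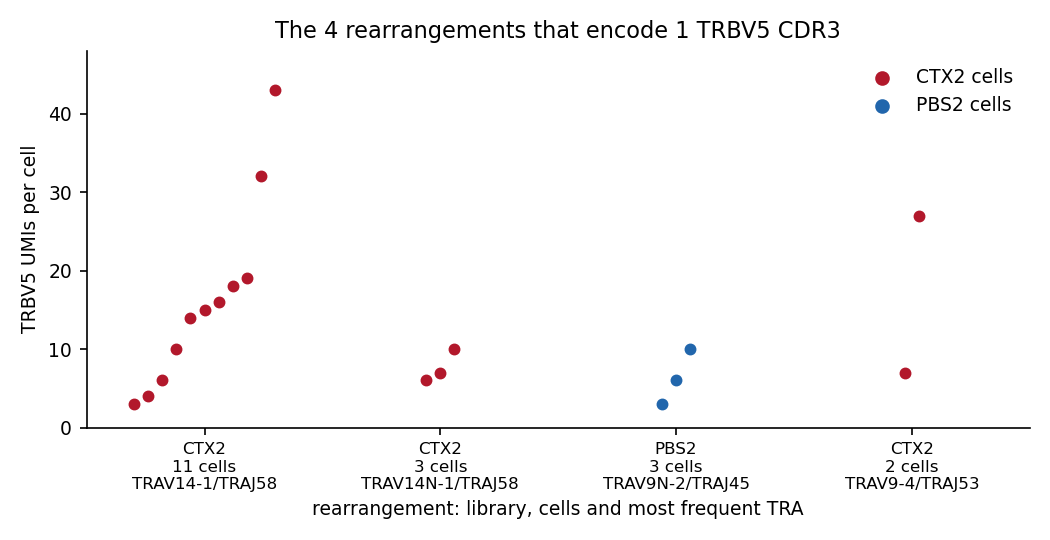
TRBV5 UMIs in each of the 19 cells with the repeated CDR3, by nucleotide rearrangement, library and most frequent alpha chain. CTX2 holds 3 of the rearrangements (red, 16 cells) and PBS2 1 (blue, 3 cells), and every cell had at least 3 UMIs.

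Other loops recurred across libraries at lower number. Of 1032 TRBV5 CDR3 proteins, counted with their J gene, 16 were found in 2 libraries (1.55%) and 0 in 3; of 8977 in other clones, 64 were found in 2 or more (0.713%). Of the 16, 12 involved Combined, the largest library, and 4 did not. In all, 22 TRBV5 proteins were encoded by 2 or more nucleotide sequences, and in 10 cases a single library held 2 or more of them.

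Of the shared proteins 12 began CASSQ and 4 CASSP. Among them were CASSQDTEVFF with TRBJ1-1 in CSF1R and Combined, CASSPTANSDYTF with TRBJ1-2 in CSF1R and Combined, and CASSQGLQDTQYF with TRBJ2-5 in CTX and CTX2. PBS1, with 11 TRBV5 clones, held 3 of the 16. A group of 3 shared loops joined to TRBJ1-4 ended ISNERLFF, in CSF1R and CTX, in Combined and PBS1, and in CTX and PBS1. Of the 97 TRBV5 clones with TRBJ1-4, 15 ended this way. That end lies on the side of TRBJ1-4, which all 3 loops use, so it does not by itself relate them.

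A pair of TRBV5 CDR3s had identical nucleotides in CTX2 and Combined. They are shown as the TRBV5 nucleotide sequences that separate libraries had in common.
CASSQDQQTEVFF: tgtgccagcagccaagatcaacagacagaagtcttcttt
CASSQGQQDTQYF: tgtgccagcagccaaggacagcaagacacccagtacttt
The 4 contigs lay in 4 different barcodes. The first was paired with TRAV13-1/TRAJ32 in both libraries. The second was paired with TRAV6-6/TRAJ56 in CTX2 and TRAV4-3/TRAJ47 in Combined.

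An alpha chain was recovered for 878 TRBV5 clones, 88.3% ± 7.29 of the clones of a library, against 84.9% ± 3.42 of other clones (p = 0.25, exact sign-flip permutation; adjusted p = 0.375). Their alphas used 64 TRAV genes and 42 TRAJ genes in 612 combinations, of which 429 occurred once. The most common combination, TRAV6-6/TRAJ52, was found in 9 clones of 5 libraries, 1.03% of TRBV5 clones with a TRA and 0.270% of other clones with a TRA. TRAV13-1/TRAJ32 was found in 5 clones of 4 libraries.

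TRAV6 was the family paired most often with TRBV5, as it was with other beta chains. It took 21.5% of TRBV5 clones in CSF1R, 19.4% in CTX, 31.7% in CTX2, 19.5% in Combined, 10.7% in PBS2 and 9.09% in PBS1. CSF1R, CTX, CTX2 and Combined lay above PBS2 and PBS1, with PBS1 resting on 1 clone. The mean was 18.7% ± 8.18 in TRBV5 clones and 17% ± 1.47 in other clones. TRAV14 took 11.7% ± 2.13 and 8.73% ± 1.90, TRAV9 10.8% ± 4.50 and 10.1% ± 2.10, TRAV7 10.6% ± 5.75 and 11.5% ± 4.38, and TRAV13 8.14% ± 5.34 and 6.95% ± 1.71. A single library set the direction for 4 of these families: the difference changed sign without CTX2 for TRAV6 and TRAV7, without PBS2 for TRAV9 and without PBS1 for TRAV13.

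Of the 12 TRAV families tested with the exact sign-flip permutation test and Benjamini-Hochberg adjustment, 0 were called (0%) and 1 had an unadjusted p below 0.05. That family was TRAV12, named after its values were seen. It took 2.53% of TRBV5 clones with a TRA in CSF1R, 2.78% in CTX, 0% in CTX2, 7.61% in Combined, 7.14% in PBS2 and 0% in PBS1. The zeros come from 41 clones in CTX2 and 11 in PBS1 and allow shares of up to 7.32% and 27.3%. The differences from other clones there, -7.27 and -11.5 points, were smaller in size than these limits, so a direction was not detectable there. The mean was 3.34% ± 3.35 in TRBV5 clones and 8.78% ± 2.43 in other clones, lower in 6 of 6 libraries (p = 0.03125, exact permutation; adjusted p = 0.375). That p needs the signs of CTX2 and PBS1. In Combined, the library with the most clones, the difference was -0.542 percentage points, against a mean difference of -5.44 points over the 6 libraries.

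Among TRAJ genes, 0 of 25 tested were called (0%) and 2 had an unadjusted p below 0.05 in the exact sign-flip permutation test. TRAJ52 was the most common partner of TRBV5, with 11.2% ± 8.51 of clones against 4.36% ± 0.606 of other clones; in single libraries it took 7.59% in CSF1R, 11.1% in CTX, 12.2% in CTX2, 5.56% in Combined, 3.57% in PBS2 and 27.3% in PBS1. TRAJ52 was higher in TRBV5 clones in 5 of 6 libraries. Without PBS1 the means were 8.01% of TRBV5 clones and 4.17% of other clones. TRAJ56 took 7.71% ± 2.45 of TRBV5 clones and 4.04% ± 0.686 of other clones, higher in 6 of 6 libraries (p = 0.03125, exact permutation; adjusted p = 0.312). TRAJ53 took 5.37% ± 4.24 and 3.81% ± 1.40, TRAJ45 5.10% ± 4.03 and 4.33% ± 1.09, and TRAJ50 4.76% ± 3.27 and 3.62% ± 0.824. The TRAJ45 difference changed sign without PBS2.

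TRAJ18, the J gene of the invariant NKT alpha, was the other, and it was named after its values were seen. It was found in 16 TRBV5 clones, at 1.27% of clones in CSF1R, 2.20% in Combined and 0% in the remaining 4 libraries. The zeros come from 36 clones with a TRA in CTX, 41 in CTX2, 28 in PBS2 and 11 in PBS1. They allow shares of up to 8.33%, 7.32%, 10.7% and 27.3%, above the mean of other clones, so a direction was not detectable there. In Combined the difference from other clones was -0.931 percentage points. The mean was 0.577% ± 0.941 in TRBV5 clones and 3.41% ± 1.36 in other clones, lower in 6 of 6 libraries (p = 0.03125, exact permutation; adjusted p = 0.312). The full NKT alpha, TRAV11 or its copy TRAV11D with TRAJ18, was found in 1 of 878 TRBV5 clones. The MAIT alpha, TRAV1 with TRAJ33, was found in 0 of 878, which allows a share of up to 0.342%. Neither alpha was counted in other TRB clones, so these counts do not show whether TRBV5 clones differ from them.

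**Figure D5:**
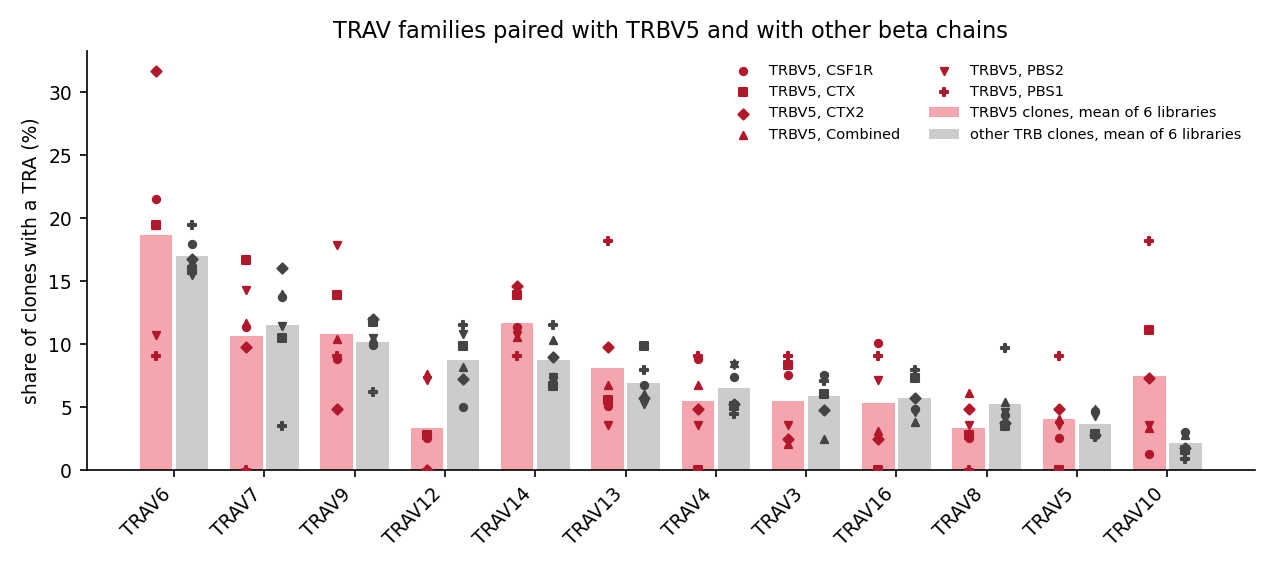
Share of clones with a TRA that use each TRAV family, in percent; bars are means of 6 libraries for TRBV5 clones (pink) and other TRB clones (grey), and points are single libraries, with the same marker for a library in both colours. TRAV6 led in both, and TRAV12 was lower in TRBV5 clones in 6 of 6 libraries, with a direction not detectable in CTX2 and PBS1, where it was 0%.

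TRBV5 took a larger share of the productive rearrangements than of those marked nonproductive. The mark is the one in the deposited table, and nonproductive contigs were counted where a CDR3 had been called. TRBV5 was found in 1059 of 10174 productive rearrangements (10.4%) and in 8 of 373 nonproductive ones (2.14%). CSF1R had 1 such TRBV5 join among 42, CTX had 2 among 27, CTX2 had 1 among 16, Combined had 4 among 257, PBS2 had 0 among 17 and PBS1 had 0 among 14; the zeros allow shares of up to 17.6% and 21.4%. The log2 odds ratio of productive to nonproductive, with 0.5 added to each count, was 1.75 in CSF1R, 0.14 in CTX, 0.10 in CTX2, 2.75 in Combined, 1.67 in PBS2 and 1.35 in PBS1. In PBS2 and PBS1 the positive value comes from the 0.5 added to a count of 0, and the limits above exceed their productive shares of 8.21% and 7.80%, so a direction was not detectable there. The mean was 1.29 ± 1.02 (SD, n = 6) with p = 0.03125 in the two-sided exact sign-flip permutation test, a p that needs the signs of PBS2 and PBS1. Over the 4 libraries with a nonproductive TRBV5 contig, a comparison added after the values were seen, the mean was 1.18 ± 1.29 (SD, n = 4), above 0 in 4 of 4, with an exact permutation p = 0.125, the smallest that 4 libraries allow.

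The threshold was also missed under 3 other alternatives. With high-confidence contigs the mean was 0.68 (exact permutation p = 0.375), with 1 added to each count 0.80 (exact permutation p = 0.125), and with full-length contigs lacking a called CDR3 also counted as nonproductive 0.85 (exact permutation p = 0.0625). In that wider set, chosen after the data were seen, 66 of 1302 nonproductive rearrangements were TRBV5 (5.07%), and CTX ran the other way, at -0.30. The direction was shared by TRBV19, TRBV13-3 and TRBV13-1, the V genes with the most similar library shares. TRBV19 made up 10.4% of productive and 3.22% of nonproductive rearrangements, TRBV13-3 7.20% and 1.61%, and TRBV13-1 11% and 4.83%. Not every abundant V gene shared it. TRBV31 made up 7.89% of productive and 10.99% of nonproductive rearrangements, TRBV1 7.31% and 7.77%, and TRBV4 6.63% and 19.57%. TRBV20, at 7.19% and 1.34%, ran the same way as TRBV5. All 8 TRBV5 joins marked nonproductive had an in-frame CDR3, 2 had a stop codon in it, and 6 were seen with a single UMI. The 6 without a stop codon showed no frame shift in the CDR3 either, so the CDR3 does not show why they were marked nonproductive. Only contigs with a called CDR3 entered this count, and the frame of joins without one was not read.

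The molecules captured per TRBV5 chain were then compared with those of other chains. The median TRB UMIs per clone were 3 for TRBV5 and 5 for other clones in CSF1R, 5.5 and 7 in CTX, 8.25 and 11 in CTX2, 8 and 9 in Combined, 6 and 6 in PBS2, and 5 and 9.25 in PBS1. The median was lower in 5 libraries and equal in PBS2. The mean was 5.96 ± 1.96 UMIs in TRBV5 clones and 7.88 ± 2.26 in other clones (p = 0.0625, exact sign-flip permutation; adjusted p = 0.125).

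A second productive TRB contig in the same cell was found in 13.8% ± 7.30 of TRBV5 clones and 21.3% ± 4.87 of other clones, lower in 6 of 6 libraries (p = 0.03125, exact sign-flip permutation; adjusted p = 0.0938). In PBS2 the shares were 27.3% and 27.4%, and the sign in 6 of 6 libraries and this p depend on that near tie. The count of second contigs includes those that repeat a CDR3 already found in the cell. The same V gene and CDR3 stood on 2 or more contigs of a cell in 6 of 1096 cases for TRBV5 (0.547%) and in 382 of 10073 cases for other TRB (3.79%). When only a second TRB with another V gene or CDR3 was counted, the shares were 12% ± 8.84 in TRBV5 clones and 12.5% ± 3.42 in other clones (p = 0.844, exact sign-flip permutation). PBS2 stood out in that count, with 27.3% of TRBV5 clones and 12.7% of other clones. Its TRBV5 chains with a second TRB were 9 contigs in 7 cells, so some cells carried a pair of TRBV5 chains and counted for each.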

How the data were processed

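Single CD45+ cells of mouse mammary tumours were captured in droplets and their T cell receptors enriched, per the labels' protocols. Cell Ranger 3.0.2 and the builds mm10 and GRCm38 are named in the submitters' processing notes. The deposited contig table gives read counts and UMI counts, whole numbers that the authors did not normalize, with cell, chain, gene, CDR3 and productive calls, which were used as deposited. Contig length was not tested. Of 11 library names in the table, 6 carried a number that matches a label, and 5 were not used.

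Productive contigs of called cells were used, and doublets were kept. A clone's TRA was the one in most of its cells, ties going to the most UMIs. TRAV families of at least 2% of clones with a TRA and TRAJ genes likewise were tested. TRBV5 and other clones were compared within each library by a two-sided exact sign-flip permutation test over 6 libraries, treated and untreated libraries by an exact permutation test, and p-values were adjusted by Benjamini-Hochberg over the 6 measures or over each gene family. Single shares carry exact Clopper-Pearson 95% intervals, and a count of 0 is limited by 3 counts; both cover counting error only. With 6 libraries the smallest p is 0.03125, so an adjusted p below 0.05 needs that p in most genes or measures of a family at once. Alternatives changed the contigs, the clone definition, the libraries and the counts added.

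The genes named were every TRBJ gene, the 5 TRAV families and the 5 TRAJ genes most used on average by TRBV5 clones, the 3 largest TRBV5 clones of a library, TRBV5 proteins in 3 or more libraries, of which there were 0, and the 3 other TRBV genes nearest in share. The members, lists and tests were chosen with earlier results of these data known. Gene positions came from RefSeq names of GRCm38.p6, in which 34 of 34 TRBV and TRBJ names matched. Python 3.11.15 was used with pandas 2.3.3, scipy 1.17.1, numpy 2.4.6 and matplotlib 3.10.9, and the functions were tested on simulated data.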

Additional observations from a re-analysis of the deposited data

Results flagged for a closer look

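PBS1 stood apart from the other 5 libraries in the length of TRBV5 loops. The mean CDR3 length of its TRBV5 clones was 15.3 residues, and the gap to other clones in the library was 1.55 residues. Both were farther from the next library than Dixon's 95% limit for 6 values allows. PBS1 held 11 TRBV5 clones, and the length difference without PBS1 was 0.814 residues. CTX2 stood apart in expansion, with 14.6% of its TRBV5 clones in 2 or more cells, 7 of 48. In all, 28 groups of libraries were tested this way and 3 values stood out; chance marks about 1 group in 20.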

How the results depend on the processing

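The mean log2 odds ratio of TRBV5 in productive against nonproductive rearrangements was above 0 in all 11 alternatives run for it, with the values of PBS2 and PBS1 set by the added count. It lost its call at 0.68 with high-confidence contigs, 0.80 with 1 added to each count and 0.85 with contigs lacking a CDR3 counted as nonproductive, at 1.18 over the 4 libraries with a nonproductive TRBV5 contig, and between 1.0 and 1.53 with a library left out; 4 libraries allow no p below 0.125 and 5 none below 0.0625, and elsewhere the cause was not tested. The TRBJ2 share of TRBV5 minus other clones, 0.403 points, changed sign with the TRB of most UMIs per cell (-0.0487), high-confidence contigs (-0.277), 2 or more UMIs (-1.27), 3 or more UMIs (-3.69) and cells counted (-0.00503), and ran between -1.40 and 2.42 with a library left out. With each TRB chain of a cell counted once in place of clones, the mean TRBV5 share was 7.92% of chains, against 8.33% of cells with a TRB. Without CTX2 the most repeated TRBV5 CDR3 was in 4 cells, not 19. In the 14 alternatives run for it the length difference stayed between 0.814 and 1.07 residues. In the 7 alternatives run for each gene family with all 6 libraries, 0 genes were called. That count says little about stability, because a call there needs the smallest possible p in most genes of a family at once. With 5 libraries no gene could be called. No paired analysis was possible because the replicate numbers follow accession order and pair no samples, and the untreated group has 1 library. Few clones in PBS1 and PBS2 limit the precision of each mean.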

Other observations

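TRB contigs outside called cells also held TRBV5. CSF1R had 14 among 152 such contigs (9.21%), CTX had 19 among 183 (10.4%), CTX2 had 26 among 583 (4.46%), Combined had 92 among 719 (12.8%), PBS2 had 13 among 181 (7.18%) and PBS1 had 3 among 55 (5.45%). The exact 95% interval of PBS1, 1.14 to 15.1, covers the other 5 values, and the median was 1 UMI in each library. In CTX2, 14 of the 26 carried the 16-residue CDR3 that was repeated in its cells.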
